A study of Mus musculus with 14 samples.

Results

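Glutathione transferases join the thiol of glutathione to reactive electrophiles, which makes them more soluble and readies them for export from the cell. The cytosolic enzymes fall into classes, among them theta, mu, pi, alpha and omega, and a separate family is embedded in microsomal membranes. In the brain they are known as part of the defence of glia against lipid peroxides and foreign compounds, and several of their genes respond to the transcription factor NRF2. Of the 23152 genes on the array, 10 are described: the theta-class genes Gstt1, Gstt2 and Gstt3, the mu-class genes Gstm1 and Gstm5, Gstp1 of the pi class, Gsta4 of the alpha class, Gsto1 of the omega class, and the microsomal genes Mgst1 and Mgst3. The genes were listed with earlier results of these arrays in view. Gstt1 was singled out because its level without EGF differed between the genotypes, so that difference is described with values and no test, and the same is done for the other 9 genes in that medium.

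The cultures were neural stem cells of the subventricular zone, taken from mouse pups at postnatal day 4. Each was established from 1 animal, and all were exposed to an adenovirus that carries Cre recombinase. Clones 1 to 4 were Cic+/+. Clones 5 to 7 were Cic-/-, made by recombination of a conditional Cic flox/flox genotype. Cic encodes capicua, a repressor that binds DNA and is switched off by signalling from receptor tyrosine kinases such as the EGF receptor. Every clone was measured after 24 h in NeuroCult proliferation medium with EGF and after 24 h in the same medium without it, which gave 4, 4, 3 and 3 Affymetrix arrays. The labels do not say whether the Cic+/+ animals carried floxed alleles. Levels are RMA values on the log2 scale, a difference of 1 being a change of 2-fold, and the level of a gene is the median of the probesets that name it alone.

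The array medians lay between 6.49 and 6.54. RMA brings arrays to a like distribution, so this measure cannot show whether an array stood apart. Cic itself lay between 9.41 and 9.69 in the Cic+/+ arrays with EGF and between 7.40 and 7.67 in the Cic-/- arrays with EGF. Of 12 neural stem cell markers 11 were on the array and all 11 were above the dim limit of 4.40, with a mean level between 10.19 and 10.46 in every array. The lowest 25% of genes by mean level fell under that limit and were not tested, which left 17364 genes. Gstt2 was among the genes left out, so 9 of the 10 members were tested.

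With EGF no member passed the comparison of the genotypes. In limma with the Benjamini-Hochberg adjustment over all genes, 0 of 9 tested members were higher and 0 were lower in Cic-/-, against 0.317% of all genes called in either direction and 1844 genes at an unadjusted p under 0.05. For 2 members, Gstt1 and Gstt3, every Cic-/- array with EGF was above every Cic+/+ array with EGF, and for 1, Gstp1, every Cic-/- array was below. Over all genes tested, 5.81% were higher and 5.91% were lower without overlap. The median difference over the 9 members was -0.0021, and that over all genes was 0.0172.

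**Figure D1:**
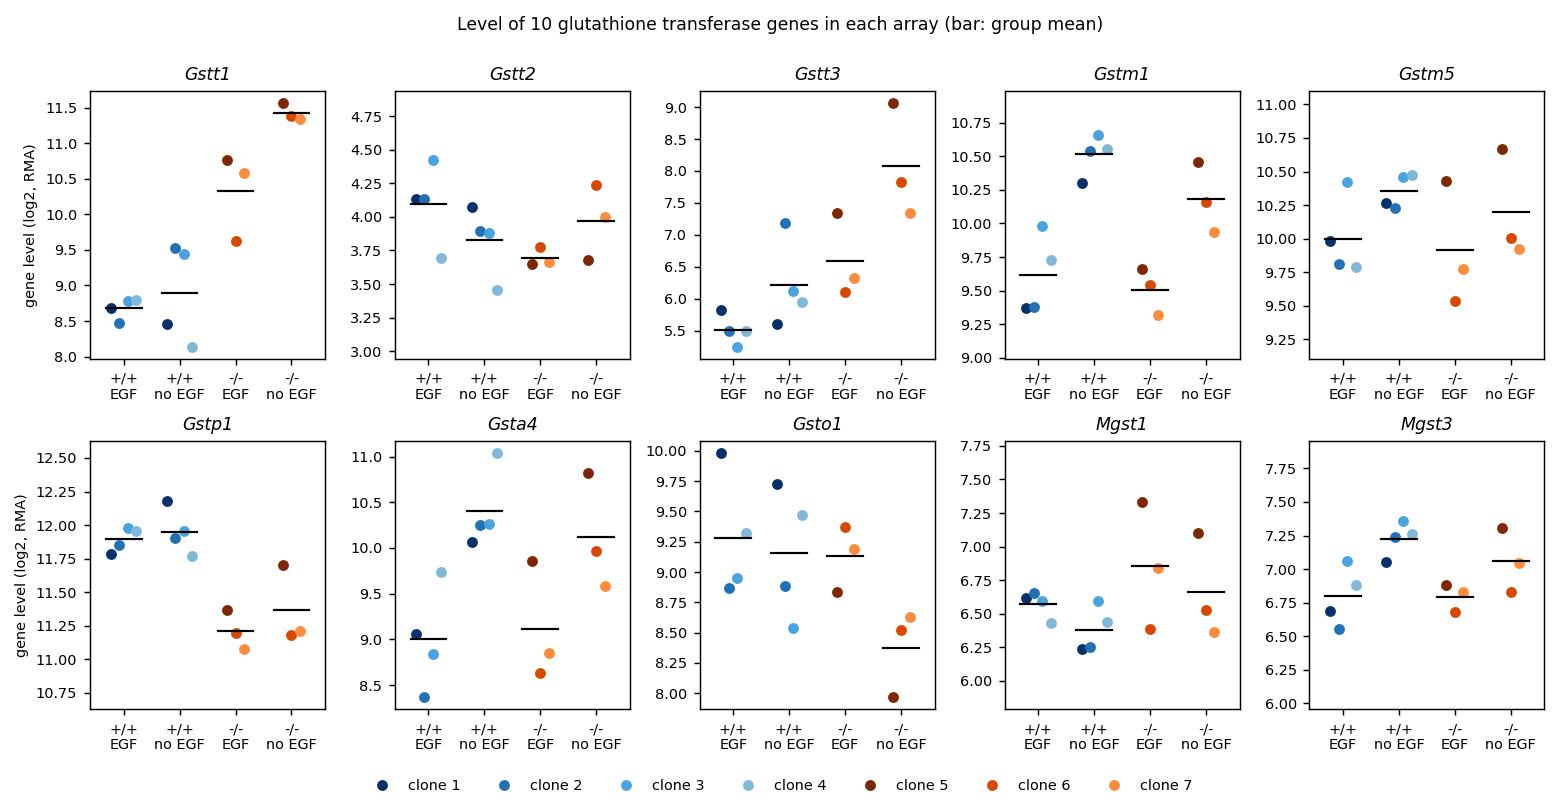
Level (log2, vertical axis) of each of the 10 genes in the 14 arrays, grouped by genotype and medium; points are single clones and bars are group means. Gstt1 and Gstt3 lie higher in every Cic-/- clone than in any Cic+/+ clone of the same medium, and Gstp1 lies lower.

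Gstt1 encodes a theta-class enzyme best known for acting on small halogenated compounds. Cic+/+ clones 1 to 4 had levels of 8.68, 8.47, 8.79 and 8.80 with EGF. Cic-/- clones 5 to 7 had 10.77, 9.62 and 10.58 in the same medium. The lowest Cic-/- clone, clone 6, lay above the highest Cic+/+ clone, and the spread was wider in Cic-/- (SD 0.61, n = 3) than in Cic+/+ (SD 0.15, n = 4). The difference was 1.64 ± 0.33 (SE), or 3.12-fold, and it missed the threshold (limma, adjusted p = 0.0532). Without clone 6 it was 1.99 and passed (limma, adjusted p = 0.0373). Over the 7 omissions of a clone the difference ran from 1.42 to 1.99. The clones are those whose arrays without EGF served to choose Gstt1, so this comparison is not independent of the choice.

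Without EGF, the medium in which it was singled out, Gstt1 lay at 8.45, 9.52, 9.45 and 8.13 in Cic+/+ clones 1 to 4. The Cic-/- clones 5 to 7 lay at 11.57, 11.38 and 11.35. The Cic+/+ clones formed a high pair and a low pair, and all 3 Cic-/- clones were above both. The difference between the group means was 2.54, or 5.83-fold. Over all genes 0.553% were called in this comparison.

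Within each clone, the level of Gstt1 with EGF minus that without was -0.80, -1.76 and -0.77 in clones 5 to 7. For clones 1 to 4 the same difference was 0.22, -1.05, -0.66 and 0.66. All 3 Cic-/- clones were lower with EGF, and the Cic+/+ clones did not share a sign. No test of Gstt1 by itself is given for these differences, since the arrays without EGF had served to choose the gene.

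Gstt1 was read by 11 probesets, none of them dim. All 11 were higher in Cic-/- in both media. The difference exceeded 1 for 8 of the 11 with EGF, where it ran from 0.05 to 2.01, and for 8 of the 11 without EGF, where it ran from 0.77 to 2.90. In Cic-/- all 11 were lower with EGF than without, by values from -1.68 to -0.30.

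Gstt3 encodes another theta-class enzyme. Its level with EGF was 5.82, 5.49, 5.24 and 5.50 for the Cic+/+ clones, numbered 1 to 4. The Cic-/- clones 5 to 7 had 7.35, 6.10 and 6.32. The groups did not overlap, with clone 6 of Cic-/- the nearest to the Cic+/+ clones. The difference of 1.08 ± 0.42 did not pass (limma, adjusted p = 0.371). Without EGF the Cic+/+ clones lay at 5.61, 7.18, 6.13 and 5.95, and clones 5 to 7 lay at 9.07, 7.82 and 7.34. The groups were again separate, and their means differed by 1.86.

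With EGF, Gstt3 was at a lower level than without it in 6 of 7 clones. The differences were 0.21, -1.70, -0.88 and -0.46 in Cic+/+ and -1.72, -1.72 and -1.01 in Cic-/-. The mean difference in Cic-/- was -1.48 ± 0.45 (limma, adjusted p = 0.25). With the clone as a block the same value passed (limma, adjusted p = 0.0456 with a random block and 0.025 with a fixed one). Here and for the genes below, the block also raised the number of all genes called. Those counts are given in the section on the dependence on processing. Of its 12 probesets 3 were dim, and of the 9 others 8 were higher in Cic-/- with EGF and 9 without.

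**Figure D2:**
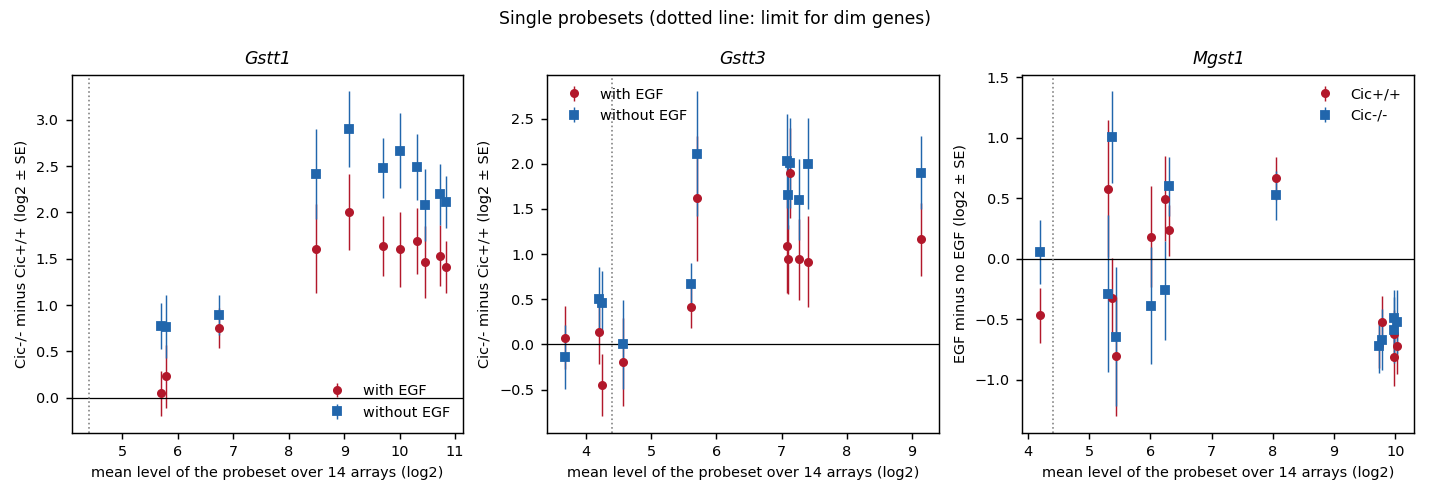
Single probesets of Gstt1, Gstt3 and Mgst1, each at its mean level over the 14 arrays (log2, horizontal axis), with its genotype difference in each medium for Gstt1 and Gstt3 and its EGF difference in each genotype for Mgst1 (log2, vertical axis, bars for the SE). All 11 Gstt1 probesets are higher in Cic-/- in both media, whereas the Mgst1 probesets fall on both sides of 0.

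Gstt2, the remaining theta-class member, was dim: it lay between 3.46 and 4.42 in the 14 arrays, near or under the limit of 4.40, and it was not tested. The theta genes are neighbours on mouse chromosome 10. In the order of the RefSeq table (assembly GRCm38.p6), the genes on the array are Susd2, Cabin1, Ddt, Gstt3, Gstt1, Gstt4, Gstt2, Mif, Derl3, Smarcb1 and Mmp11. Gstt4, which lies between Gstt1 and Gstt2, was dim as well. None of the measured neighbours outside the Gstt genes passed in either medium (limma). Ddt, which encodes a tautomerase related to Mif and stands next to Gstt3, differed by -0.27 with EGF, with overlapping groups. Without EGF it lay at 7.98, 8.69, 8.64 and 8.02 in Cic+/+ and at 8.79, 8.90 and 8.82 in Cic-/-, so every Cic-/- clone was above every Cic+/+ clone, by 0.51 ± 0.19 on average (limma, adjusted p = 0.338). In Cic-/- Ddt was also lower with EGF in all 3 clones, by a mean difference of -1.02 ± 0.21 (limma, adjusted p = 0.0599). Susd2, which encodes a membrane protein, was higher in every Cic-/- clone with EGF (0.63 ± 0.22; limma, adjusted p = 0.307) and differed by -0.02 without EGF. With and without EGF in turn, Mif, a cytokine gene on the far side, differed by -0.15 and 0.12, and Cabin1, an inhibitor of calcineurin, by -0.13 and 0.16. Mmp11, a matrix metalloproteinase gene, differed by 0.39 and 0.27, Derl3 by 0.14 and -0.27, and Smarcb1, a subunit of a chromatin remodelling complex, by -0.35 and -0.14. Derl3 without EGF and Smarcb1 with EGF were lower in Cic-/- with no overlap.

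**Figure D3:**
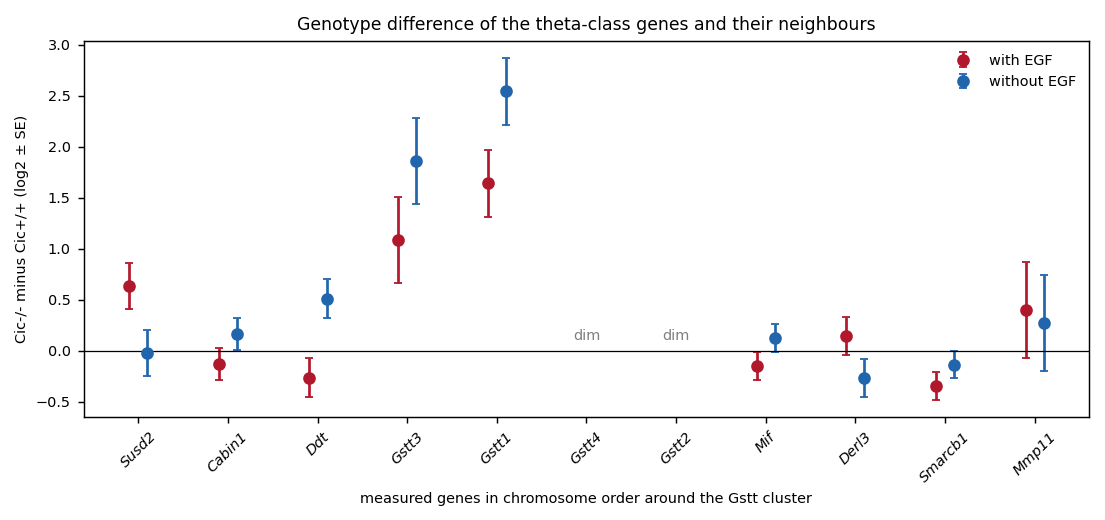
Genotype difference (Cic-/- minus Cic+/+, log2, vertical axis) with its standard error for the genes around the Gstt cluster, in their order along chromosome 10, in both media. Gstt3 and Gstt1 stand at 1.08 and 1.64 with EGF and at 1.86 and 2.54 without EGF.

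The bases before the annotated starts of these genes are shown because capicua is known to bind octamers of the form TGAATGAA and TGAATGGA, and NRF2 to bind the core of the antioxidant response element, TGACNNNGC. Both strands of the 250 bases before each RefSeq start were searched for these 3 strings, and any match would stand in capitals. Variants of the strings were not searched. The window of Gstt1 is chr10:75797732-75797981 on the minus strand of GRCm38.p6, and that of the first listed start of Gstt3 is chr10:75781423-75781672 on the same strand.
Gstt1: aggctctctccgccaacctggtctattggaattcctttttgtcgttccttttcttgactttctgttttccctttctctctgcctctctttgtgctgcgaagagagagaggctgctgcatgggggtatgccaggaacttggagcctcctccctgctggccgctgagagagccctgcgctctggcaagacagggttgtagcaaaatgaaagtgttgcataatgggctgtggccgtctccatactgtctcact
Gstt3: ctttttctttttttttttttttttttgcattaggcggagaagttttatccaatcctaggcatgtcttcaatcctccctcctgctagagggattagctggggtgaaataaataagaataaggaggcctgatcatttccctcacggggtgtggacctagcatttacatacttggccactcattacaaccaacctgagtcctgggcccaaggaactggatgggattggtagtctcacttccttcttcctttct
Neither window holds any of the 3 letter strings, which says only that these letters are not in these bases. Of 32851 such windows, 10.2% hold the antioxidant core, 1.08% hold TGAATGAA and 1.01% hold TGAATGGA. RefSeq windows were at hand for 8 of the 10 members, Gstt2 and Gsta4 being those with no entry. Neither octamer occurs in any of them. The antioxidant core occurs before Gstm5 and before 1 of the starts of Mgst1, at 42 and 56 bases before the start, in these stretches:
Gstm5: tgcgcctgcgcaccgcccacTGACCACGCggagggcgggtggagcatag
Mgst1: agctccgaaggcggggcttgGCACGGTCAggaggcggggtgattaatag
The capitals mark the core, which in Mgst1 is read on the opposite strand. A match in a window is a description and not evidence of binding.

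The genes whose levels followed Gstt1 most closely over the 14 arrays were Pcdhb2 (Pearson r = 0.94) and Pcdhb3 (r = 0.93), which encode protocadherins of the beta cluster, followed by BC029722 (r = 0.92), Tmem242 (r = 0.91), C1galt1 (r = 0.90), Xkr8 (r = 0.90), Pex13 (r = 0.90) and Zfp799 (r = 0.89). The arrays share clones and the genotype difference, so these values describe the pattern and carry no test. After the group means were taken away, r was 0.51 for Pcdhb2, 0.46 for Pcdhb3 and 0.82 for Xkr8. Gstt3 ranked 16 in this order, with r = 0.87 over the arrays and 0.60 within groups.

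Gstp1 encodes the pi-class enzyme, which in the adult brain is widely used as a marker of oligodendrocytes. With EGF, Cic+/+ clones 1 to 4 lay at 11.78, 11.85, 11.98 and 11.95. The Cic-/- clones 5 to 7 lay at 11.37, 11.19 and 11.08. All Cic-/- clones were under all Cic+/+ clones. The difference of -0.68 ± 0.15 did not pass (limma, adjusted p = 0.1). Without EGF the Cic+/+ clones lay at 12.18, 11.91, 11.95 and 11.77, and clones 5 to 7 at 11.70, 11.18 and 11.21, again with no overlap and with means that differed by -0.59. In that medium 5.18% of all genes were lower in Cic-/- without overlap and 4.20% were higher.

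The value of Gstp1 rests on 2 probesets. A further 5 probesets name both Gstp1 and Gstp2, its near-identical neighbour, and were left out of the gene value, so reads of these paralogs cannot be kept apart with certainty. Of these 5, 4 were above the dim limit, and with EGF all 4 were lower in Cic-/- without overlap, by values from -0.65 to -0.50. Without EGF 3 of the 4 were lower without overlap. EGF itself gave differences in Gstp1 of -0.06 ± 0.14 in Cic+/+ (limma, adjusted p = 0.913) and -0.15 ± 0.16 in Cic-/- (limma, adjusted p = 0.844).

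Some markers of the oligodendrocyte lineage differed with the genotype as well. The mean level of 6 progenitor markers with EGF was 9.73 to 10.25 in Cic+/+ and 8.82 to 9.25 in Cic-/-, where 1 of the 6 was lower (limma). With EGF, mean Pdgfra was 10.15 in Cic+/+ and 7.54 in Cic-/-, Sox10 7.22 and 5.70, and Gpr17 7.76 and 6.64. Olig1 was at 12.62 and 12.47, Olig2 at 12.53 and 12.23, and Cspg4 at 9.56 and 9.38. Without EGF the mean of the 6 was 10.33 to 10.67 and 9.69 to 10.48, with overlap, and 0 of the 6 passed (limma). Of 10 markers of myelinating oligodendrocytes 9 were on the array, all above the dim limit. Their mean level was 7.52 to 7.997 in Cic+/+ without EGF and 5.94 to 6.16 in Cic-/- without EGF, where 6 of the 9 were lower (limma). With EGF it was 6.16 to 6.41 in Cic+/+ and 5.70 to 6.04 in Cic-/-. In these bulk samples fewer cells of a type and less RNA per cell cannot be told apart, and the part of these markers in the difference of Gstp1 was not tested.

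Within the genotypes, the levels with EGF were compared with those without. In Cic+/+, 1 of 9 tested members fell with EGF and 0 rose, against 0.593% of all genes that fell and 0.898% called in either direction. The member was Gstm1. In 2 members, Gstm1 and Gsta4, the arrays with and without EGF did not overlap, all of them lower with EGF, against 4.94% of all genes. In Cic-/- 0 of 9 members passed, against 0.190% of all genes (1702 at an unadjusted p under 0.05), with 1 member higher without overlap, Gsto1 (6.63% of all genes), and 1 lower, Gstm1 (6.41%). Gstt1 is among the 9 in the counts of calls and in the medians. It is left out of the count without overlap, since its arrays without EGF had served to choose it. The median difference over the members was -0.36 in Cic+/+ and -0.29 in Cic-/-, beside -0.0022 and 0.0063 over all genes. In every one of the 7 clones 4 members, Gstm1, Gstm5, Gsta4 and Mgst3, were lower with EGF, as were 7.43% of all genes.

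**Figure D4:**
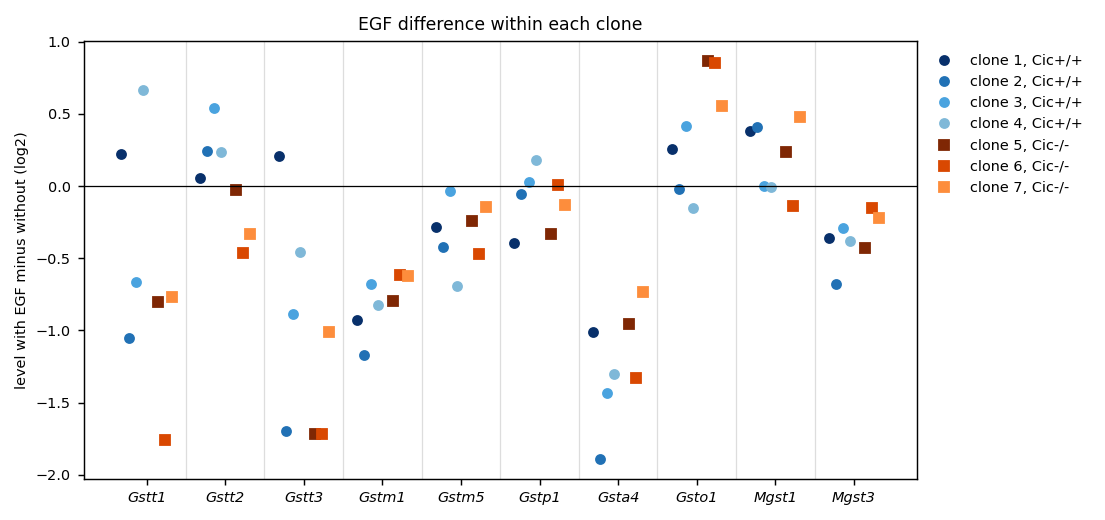
Difference with EGF minus without EGF (log2, vertical axis) of each clone for each of the 10 genes, circles for Cic+/+ clones and squares for Cic-/- clones. All 7 clones lie under 0 for Gstm1, Gstm5, Gsta4 and Mgst3, and the clones fall on both sides of 0 for Gstt1.

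Gstm1 encodes a mu-class enzyme that in the brain is known from astrocytes. In Cic+/+ clones 1 to 4 its level was 9.37, 9.37, 9.98 and 9.73 with EGF and 10.30, 10.54, 10.66 and 10.55 without. Every array with EGF was under every array without it. The fall was -0.90 ± 0.17, or 1.86-fold (limma, adjusted p = 0.0202). It was seen in 4 of 4 probesets, by values from -1.02 to -0.51. The call was lost without clone 1, 2, 3, 4 or 6, where the adjusted p (limma) reached 0.238 without clone 2 while the difference stayed between -0.97 and -0.81.

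In Cic-/- clones 5 to 7 Gstm1 lay at 9.66, 9.54 and 9.32 with EGF and at 10.46, 10.16 and 9.94 without. These arrays did not overlap either. The difference of -0.68 ± 0.19 did not pass (limma, adjusted p = 0.218). With the clone as a block it passed (limma, adjusted p = 0.0336 with a random block and 0.0305 with a fixed one). The difference between the EGF effects of the genotypes was 0.22 ± 0.25 (limma, adjusted p = 1). Of all genes 0.00576% were called in that comparison, and 0 of 9 members, with 497 genes at an unadjusted p under 0.05. The genotypes differed in Gstm1 by -0.11 ± 0.18 with EGF (limma, adjusted p = 0.885).

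Gstm5, a second mu-class gene, showed a smaller difference in the same direction. It lay between 9.79 and 10.42 with EGF and between 10.23 and 10.48 without EGF in Cic+/+, ranges that overlap. The differences were -0.36 ± 0.22 in Cic+/+ (limma, adjusted p = 0.545) and -0.29 ± 0.25 in Cic-/- (limma, adjusted p = 0.784). Further probesets that name both Gstm5 and 4933431E20Rik were left out of the gene value. In Cic+/+ their means were higher with EGF, at 10.28 against 10.14 for the first and 10.72 against 10.61 for the second. In Cic-/- they were lower with EGF, at 9.86 against 9.98 and 10.05 against 10.46. With EGF the second was lower in Cic-/- than in Cic+/+ without overlap, by -0.66.

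Gsta4 encodes the alpha-class enzyme that conjugates hydroxynonenal, an aldehyde formed when lipids are oxidised. In Cic+/+ clones 1 to 4 its level was 9.06, 8.37, 8.84 and 9.74 with EGF and 10.07, 10.26, 10.27 and 11.04 without. In Cic-/- clones 5 to 7 it was 9.86, 8.64 and 8.85 with EGF and 10.82, 9.96 and 9.59 without. The Cic+/+ arrays of the media did not overlap, and those of Cic-/- did, since clone 5 with EGF was above clone 7 without it. Within each clone the level with EGF was the lower one.

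The difference in Cic+/+, -1.41 ± 0.35 or 2.65-fold, was larger than that of Gstm1 but varied more between clones and did not pass (limma, adjusted p = 0.0847). With the clone as a block, under which many more of all genes passed too, it passed (limma, adjusted p = 0.00639 with a random block and 0.000988 with a fixed one). It also passed without clone 5 (limma, adjusted p = 0.0332). In Cic-/- the difference was -1.01 ± 0.40 (limma, adjusted p = 0.408), and it passed with the clone as a fixed block (limma, adjusted p = 0.0181) and missed with a random one (limma, adjusted p = 0.0912). All 8 probesets of Gsta4 were under -1 in Cic+/+ and 6 of the 8 were in Cic-/-. The genotypes differed by 0.12 ± 0.38 with EGF (limma, adjusted p = 0.95).

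Markers of several cell types moved with EGF beside these genes. The mean level of 9 astrocyte markers, all above the dim limit, was 8.24 to 8.83 in Cic+/+ with EGF and 9.43 to 9.72 without, and 8.61 to 8.82 in Cic-/- with EGF and 9.30 to 9.44 without. In Cic+/+ 3 of the 9, Aqp4, Gja1 and S100b, fell with EGF (limma), and in Cic-/- 0 of 9 did, with 5 at an unadjusted p under 0.05. Gfap, an astrocyte marker, went the other way in Cic-/-, at 0.46 (limma, adjusted p = 0.918).

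The mean level of the myelinating oligodendrocyte markers was 6.16 to 6.41 with EGF and 7.52 to 7.997 without in Cic+/+, where 6 of 9 fell (limma), and 5.70 to 6.04 and 5.94 to 6.16 in Cic-/-. The mean of the 6 progenitor markers was 9.73 to 10.25 with EGF and 10.33 to 10.67 without in Cic+/+. In Cic-/- it was 8.82 to 9.25 and 9.69 to 10.48. In Cic+/+ 1 of the 6 fell (limma) and 3 were higher with EGF, with a median difference of 0.0135. In Cic-/- 1 of the 6 fell (limma) and 0 were higher. The mean of 8 neuron markers was 7.31 to 7.45 with EGF and 7.41 to 7.59 without in Cic+/+. In Cic-/- it was 7.13 to 7.29 and 7.75 to 7.81. Of these 8 markers 0 passed in either genotype (limma), while 3 were higher with EGF in Cic+/+ and 2 in Cic-/-. The part of these markers in the differences of Gstm1 and Gsta4 was not tested. Across the 14 arrays the levels of Gstm1 and Gsta4 had a Pearson r of 0.85, which includes the difference between the media, and after the group means were taken away r was 0.55.

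Mgst3 encodes a microsomal enzyme with glutathione peroxidase activity that also makes leukotriene C. Its levels in the Cic+/+ clones, from 1 to 4, were 6.69, 6.56, 7.06 and 6.88 with EGF and 7.05, 7.24, 7.36 and 7.26 without. The Cic-/- clones 5 to 7 had 6.88, 6.68 and 6.83 with EGF and 7.31, 6.83 and 7.05 without. The arrays of the media overlapped in both genotypes, while each clone was lower with EGF. The difference in Cic+/+ was -0.43 ± 0.14 (limma, adjusted p = 0.205), and it passed with the clone as a random block (limma, adjusted p = 0.0453) but not as a fixed one (limma, adjusted p = 0.0646). The mean of the probesets in place of the median gave -0.60 and passed (limma, adjusted p = 0.0486). In Cic-/- the difference was -0.27 ± 0.17 (limma, adjusted p = 0.675).

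Mgst1, the other microsomal gene, gave a value that depends on which probesets are read. As the median of 13 probesets it differed with EGF by 0.19 ± 0.20 in Cic+/+ (limma, adjusted p = 0.759) and by 0.19 ± 0.23 in Cic-/- (limma, adjusted p = 0.859). A split of its probesets at a level of 9 was made after their values were seen. The 5 probesets above 9 were all lower with EGF, by -0.81 to -0.52 in Cic+/+ and -0.72 to -0.49 in Cic-/-. The 8 below 9 ran from -0.81 to 0.67 in Cic+/+. A median over the 7 brightest of the 13 probesets, which takes in 2 probesets below 9, gave a difference of -0.64 in Cic+/+ (limma, adjusted p = 0.139) and -0.70 in Cic-/- (limma, adjusted p = 0.233), so the sign turns and neither value passes.

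Gsto1, an omega-class enzyme that reduces dehydroascorbate and disulfides, was the member whose Cic-/- arrays were higher with EGF without overlap. Besides the median of Mgst1, it was the only tested member with a positive mean difference in Cic-/-. Clones 5 to 7 lay at 8.84, 9.37 and 9.19 with EGF and at 7.97, 8.52 and 8.63 without. Clones 1 to 4 lay at 9.98, 8.87, 8.95 and 9.32 with EGF and at 9.73, 8.89, 8.54 and 9.47 without. In Cic-/- the media did not overlap, and in Cic+/+ they did. Each Cic-/- clone was higher with EGF, by 0.87, 0.85 and 0.56. The Cic+/+ clones differed by 0.26, -0.02, 0.41 and -0.15.

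For Gsto1 the mean difference in Cic-/- was 0.76 ± 0.33 (limma, adjusted p = 0.454), and it passed only with the clone as a fixed block (limma, adjusted p = 0.0265; 0.116 with a random block). The EGF differences of the clones did not overlap between the genotypes, as was so for 3.41% of all genes in this direction. The difference of 0.63 ± 0.44 between the EGF effects did not pass (limma, adjusted p = 1). All 7 probesets of Gsto1 were higher with EGF in Cic+/+, and 6 of 7 were in Cic-/-. Without EGF the group means differed by -0.78 between the genotypes, with overlapping groups.

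The rest of the glutathione pathway was read through 6 lists with 99 different genes, of which 95 were on the array and 88 were tested. In limma none of the 88 passed for the genotypes with EGF, for EGF in either genotype or for the difference in EGF effect. An unadjusted p under 0.05 was reached by 12.5% of them for the genotypes with EGF, where 10.6% of all genes did. The shares were 21.6% beside 12.5% for EGF in Cic+/+, 13.6% beside 9.80% for EGF in Cic-/-, and 5.68% beside 2.86% for the difference in EGF effect. These fits do not pair the arrays of a clone, and the listed genes were not read with the clone as a block. Between the genotypes without EGF, 17% of the 88 reached an unadjusted p under 0.05 (limma), beside 10.8% of all genes. In that comparison 1 of the 88 passed, and it was lower in Cic-/-. This was Ugt1a6a, a UDP-glucuronosyltransferase gene, which was read by 1 probeset (limma, adjusted p = 0.0244). It lay at 8.48, 7.31, 7.47 and 8.74 in Cic+/+ and at 1.96, 5.03 and 1.86 in Cic-/-. In 2 of those 3 Cic-/- arrays it was under the dim limit, so no size is given for the difference.

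Of 22 other genes of the transferase superfamily, 21 were on the array, 18 were tested and 0 passed in any comparison. Gdap1l1 came nearest, at -0.95 ± 0.19 with EGF in Cic-/- (limma, adjusted p = 0.0599). Gstm4, a further mu-class gene, differed by -1.26 ± 0.36 between the genotypes without EGF (limma, adjusted p = 0.186), and the mitochondrial and peroxisomal enzyme gene Gstk1 by -0.57 ± 0.21 with EGF in Cic+/+ (limma, adjusted p = 0.26). The median over these 18 genes with EGF in Cic+/+ was -0.28.

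Among 15 genes of glutathione synthesis and recycling, all on the array and tested, 0 passed. Gclm, the modifier subunit of the rate-limiting ligase, differed with EGF by -0.52 in Cic+/+ (limma, adjusted p = 0.161) and by -0.52 in Cic-/- (limma, adjusted p = 0.329). Chac1, which degrades glutathione, differed by -0.89 with EGF in Cic+/+ (limma, adjusted p = 0.0904). Among 22 genes of peroxide and superoxide removal 0 passed, and Gpx3, the secreted glutathione peroxidase, differed by -0.85 between the genotypes without EGF (limma, adjusted p = 0.0617).

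The mRNA of Nfe2l2, the gene that encodes NRF2, took the direction opposite to Gstm1 and Gsta4. With EGF it differed by 0.61 ± 0.14 in Cic+/+ (limma, adjusted p = 0.0628) and by 0.73 ± 0.16 in Cic-/- (limma, adjusted p = 0.0872), which did not pass. The arrays do not measure the activity of the protein, and its part in these differences was not tested. Of 24 genes on the list of NRF2 and its reported targets 23 were tested and 0 passed. Their median was -0.16 with EGF in Cic+/+ and -0.26 between the genotypes with EGF. Between the genotypes without EGF it was -0.27, with 4 of the 23 higher in Cic-/-. There 7 of the 23 reached an unadjusted p under 0.05 (limma), beside 10.8% of all genes, and 2 did with EGF. With EGF 6 of the 23, Nfe2l2 among them, were higher in Cic+/+ and 10 in Cic-/-, and the others were lower. Of 8 genes for the export of glutathione conjugates 6 were tested and 0 passed. Of 16 other phase II enzymes 12 were tested, with Ugt1a6a as the 1 that passed. Ephx2, a soluble epoxide hydrolase on that list, differed with EGF by -1.65 in Cic+/+ (limma, adjusted p = 0.0803) and -1.64 in Cic-/- (limma, adjusted p = 0.22).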

How the data were processed

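The authors deposited 1 table of log2 probeset values, which the submitters' processing notes name as RMA output. Neither the RMA version nor the array's genome build is given in the sources used here. All 14 arrays were used. Of 269751 probesets, 233753 named 1 gene by GEO's platform annotation and entered the gene values, and 5106 named several. Of 23152 symbols, 20875 stood in the RefSeq table (GRCm38.p6), a synonym gave the present symbol for 2189, and 88 stayed as listed.

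The model was fitted in limma 3.58.1 (R 4.3.3) with 4 group means, 10 residual and 4.06 prior degrees of freedom, with adjustment by Benjamini-Hochberg over 17364 genes and a threshold of 0.05. Tables and plots used Python 3.11.15, pandas 2.3.3, numpy 2.4.6 and matplotlib 3.10.9. The fit was tested on simulated data, drawn without the pairing of arrays by clone. For the genotypes with EGF it recovered 4.48% of changes of 0.5, 67.2% of changes of 1 and 98.5% of changes of 2. For EGF in Cic+/+ the shares were 10.4%, 83.6% and 97%, so most changes of 0.5 were missed.

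Clone numbers pair arrays of 1 animal, per the labels. Deviations from the group means correlated within clones at 0.474, 0.323, 0.459, 0.337, 0.584, 0.156 and 0.616 for clones 1 to 7. The alternatives were other probeset summaries, dim filters, normalizations and priors, the clone as a block, only the arrays compared, and leaving out each clone. They were read for the members and for the number of genes called, and not for the genes of the lists, markers or neighbours.

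The members, lists and rules were chosen with earlier results of these data known. The genes named are the members, the 8 genes most like Gstt1 by Pearson r, the measured neighbours of the Gstt genes, Cic, and in each pathway list those that pass or otherwise up to 3 by smallest p.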

Additional observations from a re-analysis of the deposited data

Results flagged for a closer look

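Gstt2 was marked because every Cic+/+ clone and every Cic-/- clone moved in opposite directions with EGF. With EGF minus without, Cic+/+ clones gave 0.06, 0.24, 0.54 and 0.24, and Cic-/- clones gave -0.03, -0.46 and -0.34. The mean of Cic-/- minus that of Cic+/+ was -0.5453. The difference was not tested, since the gene values lay near or under the dim limit of 4.40, although 2 of its 7 probesets reached 5.67 in a single array. Those 2 probesets did not follow the gene value. In Cic+/+ clones 1 to 4 the first lay at 4.67, 5.10, 4.80 and 4.74 with EGF. Without EGF it lay at 5.33, 5.67, 5.09 and 4.76, so each clone was lower with EGF. The second was higher with EGF in every Cic-/- clone (4.16, 5.53 and 4.65 with, 3.93, 4.84 and 4.00 without). In the other genotype the clones of each went both ways. In the 30 sets of 4 arrays or clones that were searched for a value far from the others, 0 were found, where chance gives about 1 in 20.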

How the results depend on the processing

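The difference of Gstt1 without EGF, whose direction was fixed by the choice of the gene and which supports nothing here, ran from 1.98 with the mean of the probesets to 2.7550 without clone 2. With EGF the difference of Gstt1 passed with the brightest probeset (1.41, limma adjusted p = 0.044), with arrays centred on their median (1.68, limma adjusted p = 0.0451) and with a trended robust prior (limma adjusted p = 0.0473), and with the clone as a random replicate block it did not (limma adjusted p = 0.0656). These values of Gstt1 come from the clones that also served to choose the gene. The fall of Gstm1 in Cic+/+ missed the threshold with the brightest probeset (limma adjusted p = 0.0703). The block changed no member's call other than those given beside the results.

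The number of genes called, out of 17364 tested in the main fit, moved more than the members. For EGF in Cic+/+ it went from 156 to 256 with the mean of the probesets, 897 with the clone as a random block and 969 as a fixed one, and from 17 (without clone 2) to 218 over the omissions of a clone; without clones 3, 4 and 6 it was 34, 38 and 99. For EGF in Cic-/- it went from 33 to 70 with the mean, 51 with the lowest 50% left out, 55 with centred arrays, 59 with quantile normalization, 361 and 519 with the random and fixed block, 3 with only the arrays compared and 50 with the trended prior, and from 0 (without clone 5 or 6) to 68 (without clone 1); without clones 2, 4 and 7 it was 21, 19 and 18. For the genotypes it went from 96 to 170 with the mean and 44 with only the arrays compared without EGF (52 to 125 over the omissions, with 57, 52 and 63 without clones 2, 3 and 4), and from 55 to between 18 and 60 with EGF (18, 33 and 26 without clones 2, 3 and 4). For the difference in EGF effect it went from 1 to 2 with the mean, 0 with the brightest probeset or the lowest 50% left out, 7 with the random block, and 1 to 3 over the omissions. Only the arrays compared gives no separate value there, since it uses all arrays.

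Signs that turned belong to differences that were small and did not pass in the main fit. For Mgst1 some of the turned values were not small. For Mgst1 the mean of the probesets, the brightest probeset and the median of the brighter probesets (the 7 brightest of 13 for Mgst1, an alternative added after its values were seen) gave -0.22, -0.72 and -0.64 with EGF in Cic+/+, -0.18, -0.53 and -0.70 in Cic-/-, and -0.16, -0.0357 and -0.21 between the genotypes with EGF. The mean and the brightest gave 0.0342 and 0.20 for the difference in EGF effect of Mgst1. Gstp1 with EGF in Cic+/+ was 0.0156 with the brightest probeset and 0.0156 with the brighter ones. Mgst3 between the genotypes with EGF was 0.0663, 0.23 and 0.12 by these summaries, 0.0325 with centred arrays and 0.0279 with quantile normalization. Gstm5 was 0.0918 between the genotypes with EGF by the brighter probesets and -0.0212 for the difference in EGF effect by the brightest. Over the omissions of a clone, the genotype difference with EGF ran from -0.26 to 0.36 for Gsta4, -0.19 to 0.0148 for Gstm1, -0.34 to 0.10 for Gstm5, -0.29 to 0.0850 for Gsto1 and -0.0829 to 0.0867 for Mgst3. It ran from -0.14 to 0.0516 for Gstp1 with EGF in Cic+/+, and for the difference in EGF effect from -0.0423 to 0.18 for Gstm5 and -0.15 to 0.16 for Mgst1. The cause of these changes was not tested. With 3 or 4 animals a group, the number of arrays limits the precision of every value.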
